A study of Mus musculus with 4 samples.

Results

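The 10 gut hormone genes Gip, Gcg, Cck, Sct, Nts, Pyy, Sst, Ghrl, Tac1 and Tph1 were followed in single cells of the mouse small-intestinal epithelium, 10 of the 32285 genes in the deposited matrix. They were taken by symbol and not by a limit on their values, but earlier results of these data were known at that point. Male C57BL/6J mice were 8 weeks old when a high-fat diet began that was combined with l-NAME, a compound that blocks nitric oxide synthases. Feeding lasted 7 weeks, and cells were taken at 15 weeks of age. In 2 samples, named IPA, that diet also held indole-3-propionic acid, a bacterial product of tryptophan, at 562.5 mg per kg, and 2 samples, named con, had the diet without it. Every sample pooled 2 mice, all animals received the high-fat diet and l-NAME, and viable cells of jejunum and ileum were sorted before capture, intraepithelial immune cells included.

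Each captured transcript carried a unique molecular identifier (UMI), so a value is a count of distinct transcript 3′ ends per gene and cell barcode. The matrix holds 4 libraries, told apart by the number 1 to 4 at the end of each barcode, which is not a replicate number. Nothing in the labels or headers used here ties a number to an IPA or con sample. For this reason no library carries a diet below, IPA was not compared with con, and there are no p-values. The libraries are described side by side as pools of mice in which diet, animal and preparation cannot be told apart. All intervals below are 95% intervals, exact Poisson for levels and exact Clopper-Pearson for shares, and cover counting error only.

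Barcodes with at least 500 UMIs, at least 250 genes and at most 25% mitochondrial UMIs numbered 25788 of 44277. Of these, the 271 that held 10 or more UMIs of Chga and Chgb together, the granins of hormone granules, are called gated barcodes. They made up 1.05% (0.930 to 1.18) of the total, or 59, 49, 116 and 47 barcodes in libraries 1 to 4 (0.956%, 0.688%, 1.84% and 0.760%). Library 3 thus supplied more gated barcodes than any other library. The gated barcodes of libraries 1 to 4 summed to 1191695, 1004527, 2315242 and 788497 UMIs. Their medians were 16139, 15724, 14735 and 11890 UMIs a barcode, against 27745, 27155, 23076 and 26050 UMIs in the other barcodes. Apart from Chga and Chgb, which set the gate, the 8 other genes of a list of enteroendocrine markers took 0.286%, 0.162%, 0.247% and 0.247% of the UMIs of gated barcodes and at most 0.000503% of those of other barcodes. All 8 were higher in gated barcodes in every library, as were 51.2% of the 9866 genes at a mean of 5 or more UMIs for every 1000000 UMIs (CPM). The list of 7 enterocyte markers took 2.03%, 2.90%, 3.06% and 3.70% of gated UMIs, against 10.3%, 8.47%, 8.66% and 11.9% of the UMIs of other barcodes, and 36 gated barcodes had 5% or more of their UMIs in it. Their part in the results was not tested. Among the 214 barcode sequences that occurred in 2 libraries, 1 belonged to a gated barcode, and no sequence was gated in 2 libraries.

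Enteroendocrine cells are scattered hormone-secreting cells of the gut lining that sense luminal nutrients through receptors and transporters and release peptides or amines into blood and to nerves. Prohormones are cut by proprotein convertases, trimmed by carboxypeptidase E and stored with granins. The cells arise from progenitors that briefly make the transcription factor Neurog3, and are classed by their hormone: K cells make Gip, L cells Gcg and Pyy, I cells Cck, N cells Nts, S cells Sct, D cells Sst, X cells Ghrl, and enterochromaffin cells serotonin, for which Tph1 is the rate-limiting enzyme, often with the tachykinins encoded by Tac1. In mice these classes are known to overlap and cells can change hormone as they move from crypt to villus.

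The 10 genes lie on 7 chromosomes of the mouse genome (mm10, RefSeq annotation of GRCm38.p6). Gip is at chr11:96024532-96030831, Pyy at chr11:102106676-102107832, Gcg at chr2:62474530-62483653, Cck at chr9:121489824-121495694, Sct at chr7:141278329-141279174, Tph1 at chr7:46644641-46672537, Nts at chr10:102481756-102490418, Sst at chr16:23889573-23891342, Ghrl at chr6:113716119-113719911 and Tac1 at chr6:7555061-7562978. Because groups of these genes were held by the same cells, the 250 bases before each RefSeq start were searched on both strands for the cAMP response element TGACGTCA, its variant TGCGTCA, which reads TGACGCA on the opposite strand, and the GATA letters AGATAA, which read TTATCT on the opposite strand. TGACGTCA reads alike on both strands, and in the members' windows no match overlapped a match of another motif (0 overlaps). The element itself was in 1.55% of 32851 such windows of all genes and, among the members, in that of Sst. The variant was in 1.75% of windows and in those of Cck, Tac1 and the second start of Tph1. The GATA letters were in 9.99% of windows and in those of Gip, Cck, Nts and Tac1. The 4 matches of the element and its variant are shown in 30 bases each, with the match in capitals, because they belong to Sst, to Cck and to the pair Tac1 and Tph1, which the counts below place in separate blocks.
Sst, chr16:23890874-23890903, minus strand: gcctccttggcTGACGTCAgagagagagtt
Cck, chr9:121495725-121495754, minus strand: tcctgctggacTGCGTCAgcactgggtaaa
Tac1, chr6:7554851-7554880, plus strand: ttccctaaaatTGCGTCAtttcgaacacaa
Tph1, chr7:46667598-46667627, minus strand: TGCGTCAacattaacttaattaaaactcta
The match begins 48 bases before the start in Sst, 49 in Cck, 199 in Tac1 and 250 in Tph1. The whole Cck window, from RefSeq, holds both the variant and the GATA letters and is given with both in capitals.
Cck, chr9:121495695-121495944, minus strand: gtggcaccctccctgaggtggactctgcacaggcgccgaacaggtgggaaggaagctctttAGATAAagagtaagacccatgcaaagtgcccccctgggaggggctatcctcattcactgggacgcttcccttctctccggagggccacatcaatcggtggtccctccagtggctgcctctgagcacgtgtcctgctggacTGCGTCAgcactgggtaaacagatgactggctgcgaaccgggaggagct
These matches describe letters and not binding, and a window without a match says nothing of a factor.

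Together the 10 genes took 13.9%, 5.11%, 10.0% and 9.51% of all UMIs of gated barcodes in libraries 1 to 4, against 0.00739%, 0.00568%, 0.0213% and 0.00469% in the other barcodes. All 10 were higher in gated barcodes in every library, by more than 100-fold in every case, where 51.2% of the genes measured were higher. Levels in CPM are UMIs of a gene summed over the gated barcodes of a library and set against all UMIs of these barcodes, and a barcode is said to hold a gene at 10 or more UMIs of it. Each transcript is counted at its 3′ end whatever its length, so levels of different genes are set beside each other without a correction for length.

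**Figure D1:**
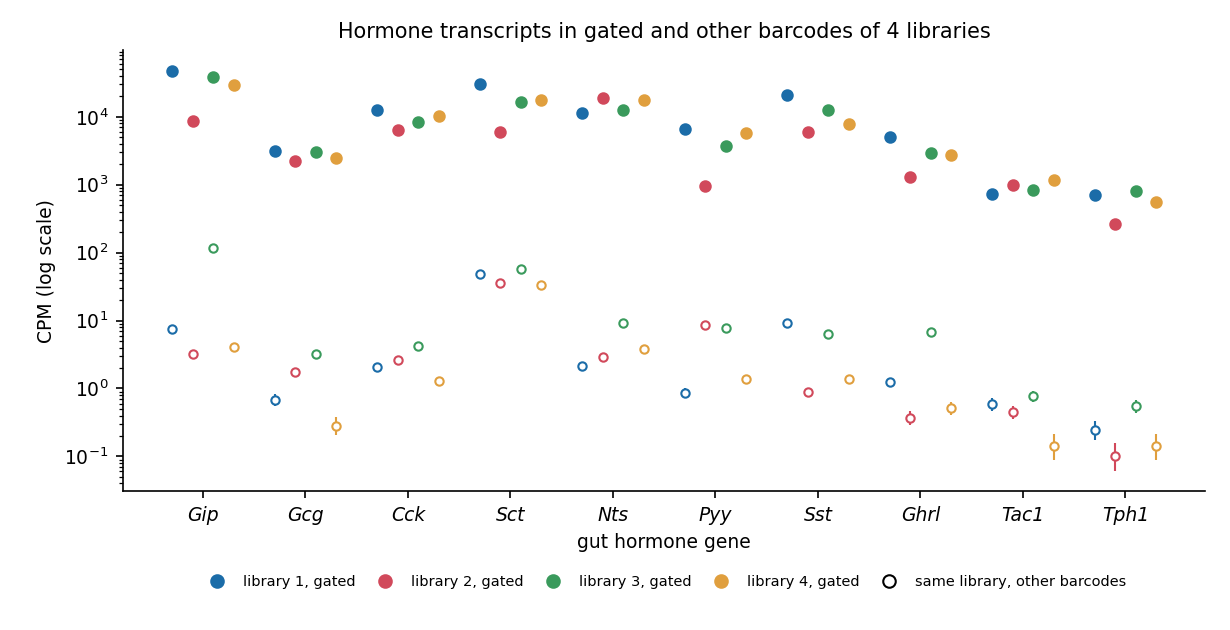
Level of each hormone gene, in CPM on a log scale, in gated barcodes (filled points) and in the other barcodes of the same library (open points) for libraries 1 to 4, with 95% Poisson intervals where they exceed the point. Library 2 is lowest for 8 of the 10 genes in gated barcodes, and the open Gip point of library 3 stands at 117 while the other libraries lie between 3.19 and 7.58.

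Gip, the incretin of K cells, was the most abundant member in 3 libraries. It stood at 47745 (47353 to 48139), 8546 (8366 to 8729), 38541 and 29133 CPM in libraries 1 to 4. Gated barcodes that held it numbered 17 of 59, 5 of 49, 33 of 116 and 12 of 47, or 28.8%, 10.2% (3.40 to 22.2), 28.4% and 25.5%. The median holder carried 2081, 1148, 1506 and 1872 Gip UMIs in libraries 1 to 4, and in 1 barcode of library 1 Gip alone made up 49.6% of all UMIs. Library 2 was low in the number of holders and less so in the level per holder.

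Gcg encodes proglucagon, the precursor of the L-cell hormone GLP-1. Its level was 3102, 2254, 3039 and 2436 CPM in libraries 1 to 4, a ratio of highest to lowest of 1.38, the smallest of the 10 genes at this gate. The ratio was 2.39 with a gate of 20 UMIs and 3.96 with a gate of 5. It was held by 8, 5, 10 and 3 gated barcodes, and 1 barcode gave 58.9% of the Gcg UMIs of library 4. Pyy, the peptide YY of the same cell class, was at 6560, 965 (905 to 1027), 3712 and 5781 CPM and was held by 18, 2, 25 and 8 gated barcodes. In library 2 the gated barcodes summed to 969 Pyy UMIs, while a single barcode outside the gate carried 1541. With a gate of 5 or more Chga and Chgb UMIs, which takes that barcode in, library 2 was at 545 CPM, still the lowest, against 2836, 2788 and 2493 CPM in libraries 1, 3 and 4.

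Cck encodes cholecystokinin, which acts on the gallbladder and pancreas and on satiety. Cck was at 12656, 6314, 8450 and 10394 CPM in libraries 1 to 4, and was held by 19, 16, 35 and 17 gated barcodes. The share of holders ranged from 30.2% in library 3 to 36.2% in library 4, with overlapping intervals in all 4. Most holders had little: the median was 112 UMIs over the 87 holders and the highest 6095.

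Nts, the precursor of neurotensin, reached 11297, 18665, 12660 and 17549 CPM in libraries 1 to 4, and was the most abundant member in library 2. Only 5, 6, 16 and 5 barcodes held it, and single barcodes gave 49.1%, 43.7%, 27.3% and 41.5% of the sums. The order of the libraries for Nts thus rests on few cells. Secretin, the duodenal bicarbonate hormone encoded by Sct, was the most widely held member, in 47, 25, 94 and 32 gated barcodes, or 79.7%, 51.0%, 81.0% and 68.1%. Its level was 30690, 5926 (5777 to 6079), 16781 and 17644 CPM.

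Sst encodes somatostatin, an inhibitor of neighbouring endocrine cells, and was at 20705, 5885, 12522 and 7703 CPM in libraries 1 to 4. It was held by 7, 2, 12 and 4 barcodes with a median of 2514 UMIs, the highest median per holder of the 10 genes. Ghrl, the precursor of ghrelin, was at 5060, 1280, 2948 and 2771 CPM and was held by 12, 10, 15 and 10 barcodes. Library 2 held Ghrl in 20.4% of its gated barcodes, close to the 20.3% of library 1, but at a median of 87 UMIs against 374.

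Tac1, the tachykinin precursor, and Tph1, the serotonin-forming enzyme, were low per cell and frequent. Tac1 was at 718, 1000, 824 and 1158 CPM with 13, 14, 29 and 13 holders, and Tph1 at 709, 263 (232 to 297), 797 and 552 with 19, 9, 42 and 13 holders. The median holder had 50 Tac1 or 34 Tph1 UMIs, and no barcode carried more than 222 of either. For Tac1, library 2 was not the lowest, while for Tph1 it was. The share of Tph1 holders was 18.4% (8.76 to 32.0) in library 2, against 32.2%, 36.2% and 27.7% in libraries 1, 3 and 4, with intervals that overlap.

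Most gated barcodes held several of these genes. Of 271, 41 held none, 13 held 1, 65 held 2, 86 held 3, 47 held 4, 16 held 5 and 3 held 6, so that 217 (80.1%, 74.8 to 84.7) held 2 or more. By library this share was 84.7%, 59.2%, 87.9% and 76.6%, and 15 of the 41 barcodes without a member were in library 2. Without library 2 the pooled share was 84.7%, and without library 3 it was 74.2%. It was 67.7% when barcodes with at least 5000 UMIs were thinned to 5000 UMIs and the others left out. Most of the 41 empty barcodes lay near the limit of the gate: of the 33 barcodes with 10 to 14 Chga and Chgb UMIs, 30.3% held a member, against 65.2% of those with 15 to 19, 91.8% of those with 20 to 49 and 96.5% of those with 100 or more. Just below the gate, 3.91% of 230 barcodes with 5 to 9 UMIs held a member.

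The pairs fell into blocks. Of 45 pairs, 23 occurred together more often than the product of their shares and 22 less often. The shares are of all gated barcodes, and the 41 that held no member raise every ratio to this product. Pairs with a ratio near 1, such as Sct with Ghrl at 1.10, could change side without them, which was not tested. The correlation over gated barcodes of a library, of the logarithm of UMIs per 10000, was positive in all 4 libraries for 15 pairs and negative in all 4 for 20. These correlations are descriptions over cells of the same library that were not matched in depth, which ran from 547 to 109277 UMIs over all gated barcodes. Sums over libraries weight library 3 most.

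**Figure D2:**
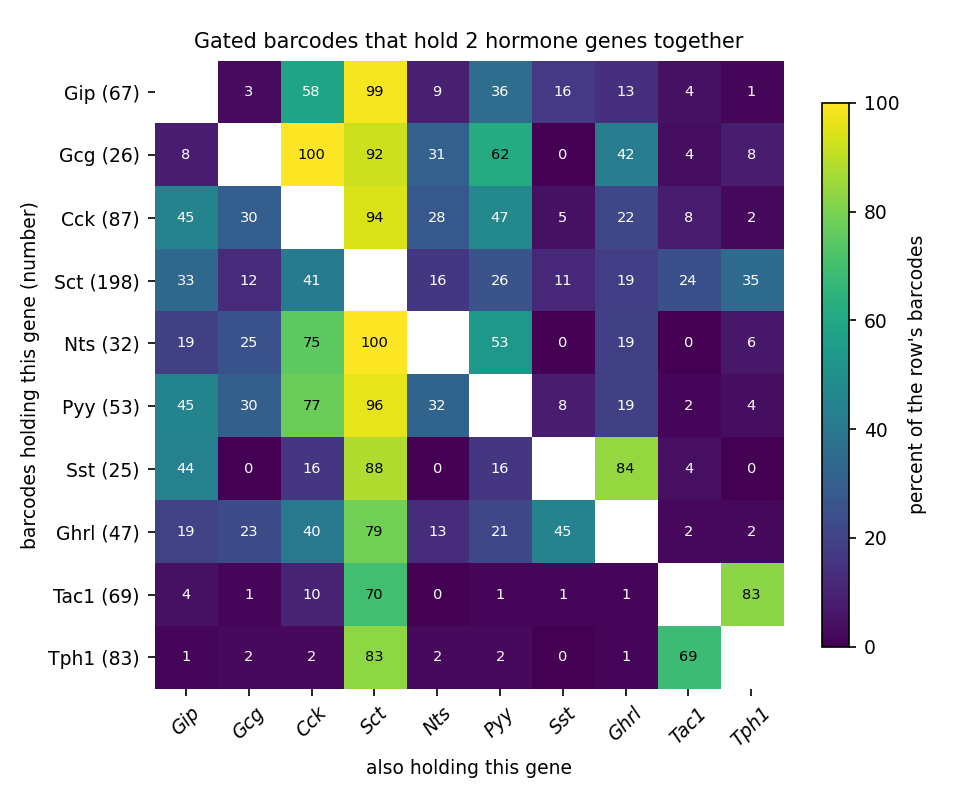
Percent of the gated barcodes holding the row's gene (number in brackets, 4 libraries pooled) that also held the column's gene, at 10 or more UMIs of each. All 26 Gcg barcodes also held Cck, 83% of Tac1 barcodes held Tph1, and the Tac1 and Tph1 rows are at 10.1% or less for the peptide genes other than Sct.

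Cck was held alongside several other peptides. Every one of the 26 Gcg holders also held Cck (100%, 86.8 to 100), 8, 5, 10 and 3 of them by library, while these were 29.9% of the Cck holders. The same was true of 41 of 53 Pyy holders, 24 of 32 Nts holders and 39 of 67 Gip holders. Relative to the product of shares, Gcg with Cck was 3.13 times as frequent and Gcg with Pyy 3.01 times (5, 2, 6 and 3 barcodes by library). Nts with Pyy was 2.80 times as frequent, with 3, 0, 11 and 3 barcodes, most of them in library 3, and Gcg with Nts 2.68 times, with 2, 3, 2 and 1. Cck with Pyy was 2.43 times as frequent, with 12, 2, 20 and 7 barcodes, and Gip with Cck 1.82 times, with 11, 3, 17 and 8. Gip and Gcg met in 2 barcodes, both of library 1, where 6.43 would follow from their shares. Among Cck holders alone, Gip went against Gcg in all libraries (r = -0.64, -0.29, -0.53 and -0.45 over 19, 16, 35 and 17 barcodes) and against Nts (r = -0.53, -0.26, -0.34 and -0.54). Cck holders rich in Gip thus had little Gcg or Nts.

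Sct was held by 198 of all 271 gated barcodes (73.1%), and so was frequent alongside most other members. It was held by all 32 Nts holders, 66 of 67 Gip holders, 51 of 53 Pyy holders, 24 of 26 Gcg holders, 69 of 83 Tph1 holders and 48 of 69 Tac1 holders. Relative to the product of shares, these pairs were 1.37, 1.29, 1.24, 1.26, 1.10 and 0.963 times as frequent, so the ratios of Tph1 and Tac1 were near 1. The level differed by companion: barcodes led by Pyy had a median of 1270 Sct UMIs, those led by Nts 880, those led by Gip 215, those led by Cck 184 (769 without library 2), those led by Tac1 or Tph1 67, those led by Gcg 47, those led by Sst 25 and those led by Ghrl 6. Only 6 barcodes were led by Pyy and none of them was in library 2. Nts-led barcodes had medians of 1730, 776, 756 and 786 Sct UMIs in libraries 1 to 4, and Sst-led barcodes 23, 122, 21 and 20.

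Sst and Ghrl were held together. Of 25 Sst holders, 21 (84.0%, 63.9 to 95.5) held Ghrl, 7, 2, 9 and 3 by library, which was 44.7% of the 47 Ghrl holders and 4.96 times the product of shares, the highest ratio of the 45 pairs. The correlation of Sst and Ghrl was 0.80, 0.39, 0.68 and 0.41 in libraries 1 to 4. Sst was not held with Gcg, with Nts or with Tph1 in any gated barcode, and of the 4 pairs without a shared barcode the other was Nts with Tac1. In each of these an upper limit remains, such as 13.2% of the 26 Gcg holders. Ghrl was also held with Cck in 19 barcodes and with Gcg in 11 (2.40 times the product of shares), none of these 11 with Sst.

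Tac1 and Tph1 were held together and mostly apart from the peptides. Together they were in 57 barcodes, 82.6% (71.6 to 90.7) of Tac1 holders and 68.7% of Tph1 holders, 11, 8, 27 and 11 by library. Over all gated barcodes their correlations were 0.63, 0.73, 0.69 and 0.81. Among only the barcodes that held Tac1 or Tph1 they were -0.06, 0.50, -0.02 and 0.13 (21, 15, 44 and 15 barcodes). Of the 95 barcodes that held Tac1 or Tph1, 12 (12.6%) also held Gip, Gcg, Cck, Nts, Pyy, Sst or Ghrl, 3, 4, 4 and 1 by library, and 144 gated barcodes held at least 1 of those 7 peptides in all. Tac1 met Cck in 7 barcodes, 10.1% (4.18 to 19.8) of Tac1 holders, 1, 4, 2 and 0 by library, where 22.2 would follow from their shares. Tph1 met Gip in 1 barcode and Cck in 2, where 21.7 and 26.4 would follow from their shares. Of the 12 mixed barcodes, 1 was among the 6% with the highest doublet score, as were 26 of all 271 gated barcodes. Whether the mixed barcodes were doublets was not tested.

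**Figure D3:**
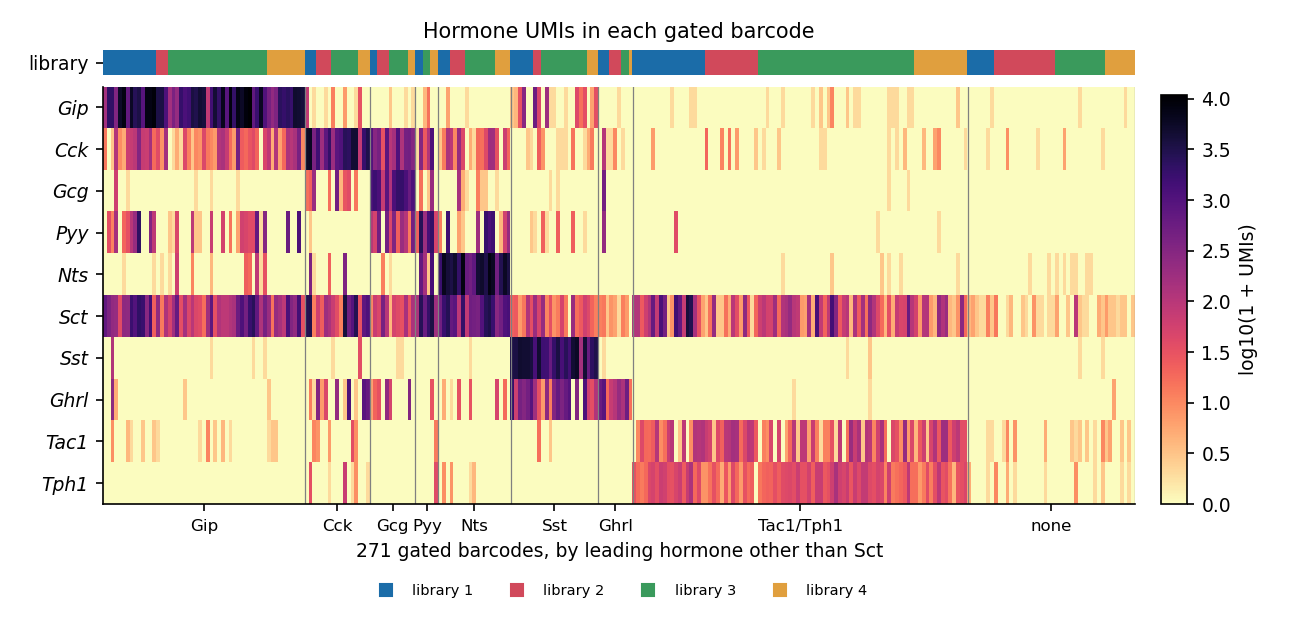
UMIs of each hormone gene, as log10(1 + UMIs), in all 271 gated barcodes, ordered by the member other than Sct with most UMIs and then by library, whose colour is in the top strip. Sct runs across nearly all groups, Cck runs across the Gip, Gcg, Pyy and Nts groups, Ghrl follows Sst, and Tac1 with Tph1 mostly stand apart.

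The combinations were many. Gated barcodes showed 57 sets of members held, of which 30 occurred in a single barcode. The most frequent were Sct with Tac1 and Tph1 (41 barcodes, 9, 6, 20 and 6 by library), Sct with Tph1 (23), Gip with Cck and Sct (17), Tac1 with Tph1 (14), Gip with Sct (13), Gip with Cck, Sct and Pyy (13) and Sct with Sst and Ghrl (8). No set of 3 or more members without Sct was among these 7.

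Within the serotonin block, barcodes differed in secretin. The 21 Tac1 holders without Sct had medians of 67 Tac1 and 14 Tph1 UMIs, the 48 Tac1 holders with Sct 43.5 and 33, and the 26 holders of Tph1 and Sct without Tac1 had 2 and 47. Neurog3, the progenitor factor, had a UMI in 11 of the 21 barcodes with Tac1 and no Sct (3 of 3, 2 of 6, 4 of 6 and 2 of 6 by library). It had a UMI in 7 of the 48 with Tac1 and Sct, and in none of the 26 with Tph1 and Sct but no Tac1. Of these 26, 23 held no further member. Median depths were 12918, 13166 and 11957 UMIs over the 4 libraries pooled. In libraries 1 to 4 they were 13318, 9260.5, 12438 and 17409.5 for the 21 barcodes with Tac1 and no Sct. For the 26 with Tph1 and Sct but no Tac1 they were 13850.5, 7222, 11871 and 4194. The part of depth in the Neurog3 counts was not tested. Of the 21, 3 held Cck and Tac1 alone, all in library 2. Among barcodes with Tac1 or Tph1, Sct correlated with Tph1 at 0.70, 0.44, 0.34 and 0.74 in libraries 1 to 4 (21, 15, 44 and 15 barcodes) and with Tac1 at -0.53, -0.15, -0.36 and 0.03. Without the 12 mixed barcodes, Sct correlated with Tph1 at 0.75, 0.62, 0.64 and 0.76. Library 2 had 6 of the 21 and only 1 of the 26.

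To describe what else these cells made, each gated barcode was assigned to the member other than Sct with most UMIs. Gip led in 53, Tac1 in 51, Tph1 in 37, Sst in 23, Nts in 19, Cck in 17, Gcg in 12, Ghrl in 9 and Pyy in 6, and 44 held none of the 9. Gip led 23.7%, 6.12% (1.28 to 16.9), 22.4% and 21.3% of the gated barcodes of libraries 1 to 4, and Tac1 led 15.3%, 26.5%, 16.4% and 21.3%. Tph1 led 16.9%, 2.04%, 18.97% and 8.51%. Barcodes with none of the 9 made up 11.9%, 32.7%, 11.2% and 17.0%. Because shares of 1 whole sum to 100%, a low share of one group raises the others.

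**Figure D4:**
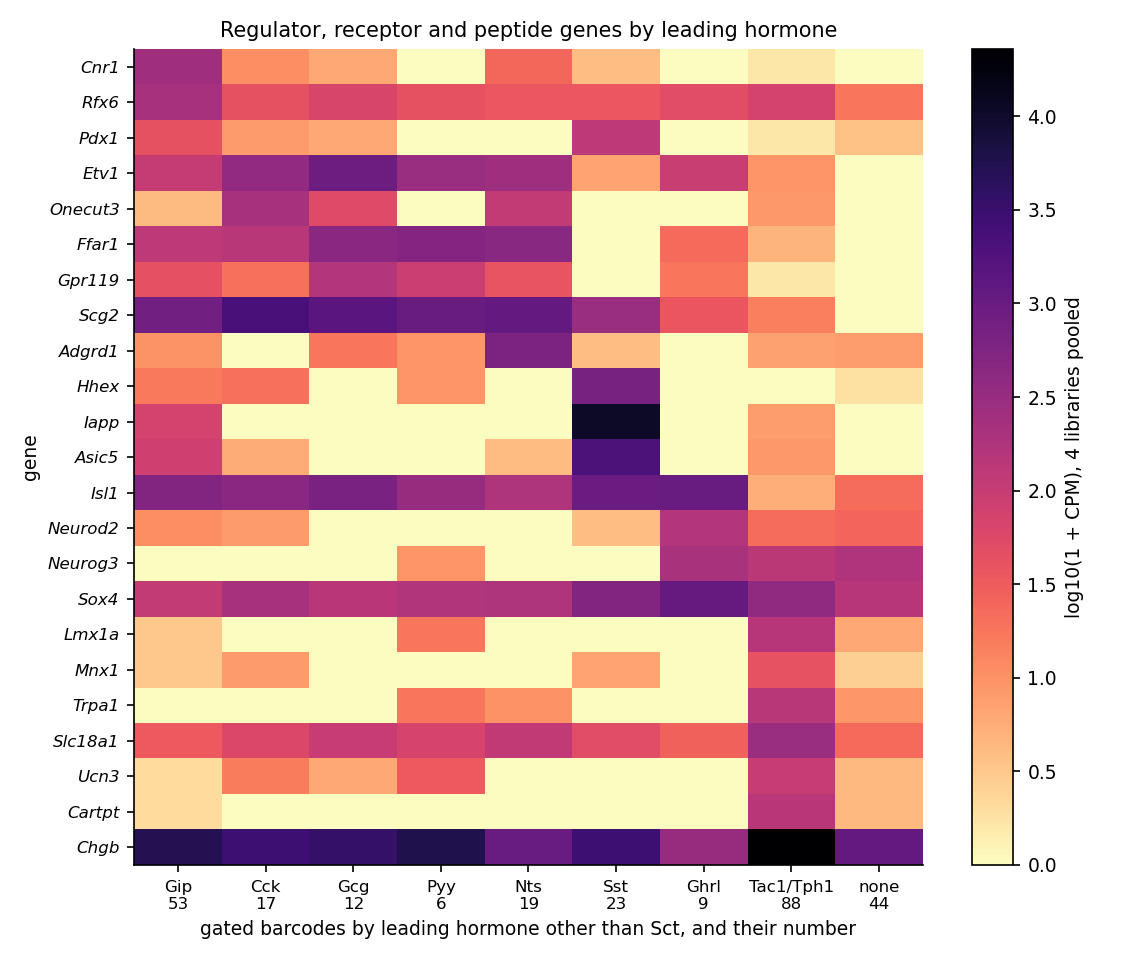
Level of transcription factor, receptor, secretory and peptide genes, as log10(1 + CPM) over 4 pooled libraries, in gated barcodes by leading hormone (number of barcodes under each name). The genes were picked from the lists after their values were seen. Hhex, Iapp and Asic5 are high in the Sst column, Adgrd1 in the Nts column, Cnr1 in the Gip column and Lmx1a, Trpa1, Ucn3 and Cartpt in the Tac1/Tph1 column.

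Sst-led barcodes had the genes most like any member. Hhex, a homeobox factor needed for D cells in mouse pancreas, followed Sst with a mean correlation of 0.94 over the 4 libraries (271 gated barcodes, 11335 genes compared). Iapp, the islet amyloid peptide, followed Sst with 0.91 and Asic5, an acid-sensing channel family member, with 0.84. Sst had a UMI in only 8, 2, 23 and 4 gated barcodes of libraries 1 to 4, so these means rest on few cells. Iapp was at 10703, 13484, 10655 and 6345 CPM in the Sst-led barcodes of libraries 1 to 4, against at most 181 in any other group of any library. Hhex was at 888, 638, 559 and 989 in them. Pdx1, a factor of proximal gut and pancreas, was at 128 CPM in Sst-led and 41.2 in Gip-led barcodes. Isl1, a LIM homeobox factor, was at 942 CPM in Sst-led and 958 in Ghrl-led barcodes. In library 4 the only Ghrl-led barcode had 269 CPM of Isl1.

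Gip was followed most closely by Fabp5, a fatty acid binding protein (mean r = 0.83), Cnr1, the cannabinoid receptor (0.82), and Sphkap, an anchoring protein of protein kinase A (0.79). Cnr1 was at 375, 305, 224 and 174 CPM in the Gip-led barcodes of libraries 1 to 4, and at 23.8 or less in every other group pooled over libraries, where the highest, the Nts-led group, was at 10.4 without library 3. Rfx6, a factor required for Gip production in mice, was highest in Gip-led barcodes in each library and at 210 pooled, against 68.9 in Tac1- or Tph1-led barcodes. For Gcg the closest genes were Fap (0.69), Etv1 (0.67) and Rnf130 (0.54), although Fap had a UMI in only 14 barcodes. For Cck they were Scg2, a granin (0.76), Etv1, an ETS factor (0.74), and Ffar1, a receptor of long-chain fatty acids (0.69). For Pyy they were the same Ffar1 (0.57), Scg2 (0.52) and Etv1 (0.52). Etv1 was highest in Gcg-led barcodes in all libraries and at 882 pooled, with 358 in Cck-led barcodes.

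Nts was followed by Adgrd1, an adhesion G protein-coupled receptor (mean r = 0.78), Prrx2, a homeobox gene (0.73), and Qpct, the glutaminyl cyclase that forms the amino-terminal pyroglutamate of peptides such as neurotensin (0.71). Prrx2 had a UMI in only 19 gated barcodes. Adgrd1 was at 694, 529, 673 and 459 CPM in the Nts-led barcodes of libraries 1 to 4, and at 15.9 in Gcg-led barcodes pooled, the next highest group, which was at 6.22 without library 2. Sct was followed by Myl7 (0.72), Tm4sf4 (0.66) and Adgrg4 (0.65), and Ghrl by Ceacam10 (0.58), Kcnk16 (0.54) and Isl1 (0.54). The correlations of Ghrl varied between libraries, from 0.31 to 0.82 for Isl1.

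Tac1 was followed by Vim (mean r = 0.77), Rab3c, a small GTPase of vesicles (0.76), and Gstt1 (0.73), and Tph1 by Chga (0.80), Lmx1a, a homeobox factor that drives Tph1 in mice (0.73), and Tpbg (0.69). Chga was used for the gate, so its likeness to Tph1 is partly set by it. Lmx1a was at 199, 52.3, 155 and 162 CPM in the Tac1- or Tph1-led barcodes of libraries 1 to 4, and Trpa1, an irritant-gated channel of enterochromaffin cells, at 196, 172, 102 and 180. Outside this group both were at most 35.5 in any named group of any library. Slc18a1, the vesicular monoamine transporter of endocrine cells, was at 298 pooled, against 113 in Nts-led barcodes. The peptide Ucn3 was at 99.9 and Cartpt at 136, but Cartpt was at 327 in library 1 and 3.73 in library 2, and at 86.2 without library 1. Chgb was at 22800 and Chga at 6920 CPM pooled, the highest of all groups in every library, so that the median barcode of this group had 451 gate UMIs, against 49 for Gip-led, 38 for Sst-led and 28 for Ghrl-led barcodes. A limit of 10 therefore cuts closer to the peptide groups than to the serotonin group.

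The receptors for lipids were unevenly placed. Ffar1 was at 441 CPM in Nts-led, 423 in Gcg-led, 143 in Cck-led and 126 in Gip-led barcodes and without a UMI in Sst-led barcodes. In Pyy-led barcodes it was at 500 pooled but at 293 without the 2 such barcodes of library 3. Gpr119, a receptor of lipid amides, was at 159 in Gcg-led and 90.1 in Pyy-led barcodes. Ffar4, another receptor of long-chain fatty acids, was at 68.3 in Gip-led barcodes. It was at 41.0, 37.0, 36.3, 34.8 and 32.8 in Pyy-, Gcg-, Cck-, Sst- and Nts-led barcodes, and at 5.29 in Ghrl-led and 4.34 in Tac1- or Tph1-led barcodes. Ffar2, a receptor of short-chain fatty acids, was at 180 in Tac1- or Tph1-led barcodes and at 259 in Ghrl-led barcodes (150 without library 2). It was at 132 in Gcg-led, 94.3 in Cck-led, 75.3 in Sst-led, 23.8 in Nts-led and 3.25 in Gip-led barcodes, and at 0 in Pyy-led barcodes. The bile acid receptor Gpbar1 was scarce, at 5.87, 2.99, 7.34 and 13.95 in all gated barcodes of libraries 1 to 4.

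Across the lists, genes of the general machinery of hormone cells were higher in gated than in other barcodes, at levels that differed between groups. Pooled over libraries, Cpe was at 1992 CPM in Gcg-led and 406 in Tac1- or Tph1-led barcodes. Of the 16 processing and granule genes, 15 were measured at a mean of 5 or more CPM and all 15 were higher in gated than in other barcodes in every library, where 51.2% of all measured genes were. Cpe was the highest, at 1107, 564, 861 and 892 CPM in gated barcodes and at most 1.63 in other barcodes, followed by Scg2, Pcsk1n and Pcsk1. The convertase Pcsk1 was at 361, 230, 323 and 285, while Pcsk2, the convertase that releases glucagon in islet alpha cells, was at 5.87, 0, 3.89 and 5.07. Of the 26 fate factors 25 were measured and all 25 were higher in gated barcodes in every library, led by Neurod1 at 488, 283, 483 and 431. Bhlhe22 had no UMI in gated barcodes. Of the 21 sensing genes 12 were measured, of which 11 were higher in every library. The exception was the glucose transporter Slc5a1, at 394, 461, 360 and 372 in gated barcodes and 1198, 773, 788 and 890 in the others. Of the 10 serotonin genes 9 were measured, with 7 higher and 2 lower in every library, where 19.3% of all measured genes were lower. The lower ones were the transporter Slc6a4 and the degrading enzyme Maoa. Of 17 further hormone genes 6 were measured and 3 were higher in every library. Those 3 were Iapp, Ucn3 and Cartpt, whereas the guanylin-family gene Guca2b was lower in every library.

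Markers of other cells were present in gated barcodes. Goblet markers took 0.150%, 0.100%, 0.484% and 1.08% of gated UMIs, against 1.42%, 1.11%, 1.21% and 0.870% of the UMIs of other barcodes. Paneth markers took 0.0112%, 0.0389%, 1.78% and 0.0297% of gated UMIs, against 0.350%, 0.899%, 0.955% and 0.317% in other barcodes. The gated share was thus above that of other barcodes for the goblet list in library 4 and the Paneth list in library 3, and the part of either in the results was not tested. Immune markers took at most 0.00678% of gated UMIs. The median barcode with 10 to 14 gate UMIs had 3.68% of its UMIs in enterocyte markers, against 0.755% at 15 to 19 gate UMIs and 0.540% at 20 to 49. The 44 barcodes without a leading hormone had a median depth of 27069 UMIs, a median of 1 Sct UMI and 13.5 gate UMIs, and the other barcodes had a median depth of 26427 UMIs. The barcodes without a leader had Cpe at 26.5 CPM (16.2 without library 4), against 1820 in Gip-led and 406 in Tac1- or Tph1-led barcodes. Neurod1 was at 105 in them (63.7 without library 3), and Neurog3 was at 174, or between 112 and 269 with 1 library left out. Maoa and Slc5a1, both lower in gated than in other barcodes, were at 551 and 712 in them. Neurog3 had a UMI in 6, 6, 14 and 6 gated barcodes of libraries 1 to 4, and apart from the group without a leader it was found in Tac1- or Tph1-led barcodes at 131 and in Ghrl-led barcodes at 201, with no UMI in Gip-, Gcg-, Cck-, Nts- or Sst-led barcodes. The Ghrl-led value was 66.6 without the 2 such barcodes of library 3 and 332 without library 4.

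Outside the gate, hormone transcripts showed a low level in every marker class, though not for all members alike. Gip, at 7.58, 3.19, 117 and 4.09 CPM in the other barcodes of libraries 1 to 4, was carried in library 3 by 9 barcodes of 677 to 2755 Gip UMIs that lay below the gate. They gave 82.3% of the Gip UMIs there, and without them the level was 20.7. Tph1 was held by no barcode outside the gate and Tac1 by 3, all of them goblet-marker barcodes. In immune-marker barcodes, which should not make it, Gip had a UMI in 6.53% and 19.3% in libraries 1 and 3, at median depths of 4052 and 3816 UMIs. The share of Gip holders missed by the gate was 5.56%, 28.6%, 29.8% and 7.69% in libraries 1 to 4.

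Of the 10 genes, Sct was held most often outside the gate. It was held by 352 barcodes outside the gate, 117, 81, 108 and 46 by library, of which 272 had 10% or more of their UMIs in goblet markers. In the goblet-marker barcodes Sct was at 476, 337, 403 and 305 CPM, against 38.8, 25.5, 35.6 and 29.6 in enterocyte-marker barcodes and 6.36 and 14.8 in the immune-marker barcodes of libraries 1 and 3. The 21 tuft-marker barcodes of library 1 had 779. Thinning to 5000 UMIs took only barcodes with at least 5000. It left out 2, 4, 6 and 5 gated barcodes of libraries 1 to 4. Of immune-marker barcodes it kept 166 and left out 278 in library 1, and kept 327 and left out 1048 in library 3. After thinning, 91.2%, 77.8%, 90.9% and 81.0% of gated barcodes had an Sct UMI. The shares were 80.9%, 67.6%, 72.7% and 64.7% of goblet-marker barcodes and 19.6%, 12.3%, 17.8% and 14.8% of enterocyte-marker barcodes. They were 4.22% and 6.12% of the immune-marker barcodes kept in libraries 1 and 3. Without thinning and over all depths, the shares of goblet-marker barcodes were 93.4%, 86.3%, 89.7% and 92.8%. Tac1 was also higher in goblet-marker than in enterocyte-marker barcodes of libraries 1 and 2. It stood at 6.82, 7.31, 1.13 and 0.270 CPM in goblet-marker barcodes, against 0.269, 0.165, 0.704 and 0.117 CPM in enterocyte-marker barcodes. After thinning, 2.66%, 3.73%, 0.546% and 0% of goblet-marker barcodes had a Tac1 UMI, against 0.117%, 0.0938%, 0.458% and 0.0404% of enterocyte-marker barcodes. The intervals did not overlap in libraries 1 and 2 and overlapped in libraries 3 and 4. Gip in the same goblet-marker barcodes was at 6.82, 1.12, 18.1 and 1.08 CPM. In library 3 the immune-marker barcodes had 342 Gip and 101 Sct UMIs and the goblet-marker barcodes 80 Gip and 1786 Sct UMIs. The source of the Gip and Sct UMIs in these barcodes was not tested. The highest Sct count in a goblet-marker barcode was 69 UMIs, below the gated median holder of 120.

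**Figure D5:**
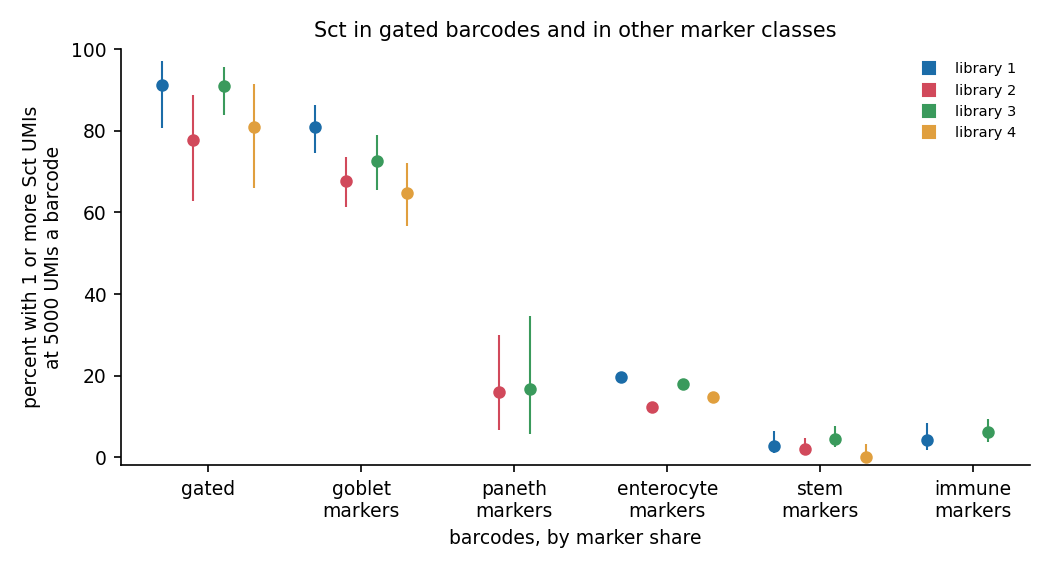
Percent of barcodes with 1 or more Sct UMIs after thinning to 5000 UMIs a barcode, in gated barcodes and in other barcodes grouped by their share of UMIs in marker lists, for each library with at least 20 barcodes, with 95% Clopper-Pearson intervals. Barcodes with fewer than 5000 UMIs were left out. Goblet-marker barcodes lie at 64.7% to 80.9%, next to gated barcodes, and enterocyte-, stem- and immune-marker barcodes lie at 19.6% or less.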

How the data were processed

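The 4 samples were assayed with a droplet 3′ v2 protocol with UMIs, per the labels' protocols, and the submitters' processing notes name Cell Ranger 6.1.1 and mm10. The authors deposited raw counts of UMIs, as whole numbers for every gene in every barcode, per the file headers. How barcodes were filtered and libraries merged is not given in the sources used here. Libraries 1 to 4 are the barcode numbers. The edgeR test of diet planned on summed counts was not run, since no source ties these numbers to samples. Levels are summed counts divided by the library's gated total (CPM). A count of 3 would set the limit of a level at 0. The members, lists and rules were chosen with earlier results of these data known. Genes named as most alike are the 3 non-members with the highest mean over libraries of Pearson's r, among genes with a UMI in 5% or more of gated barcodes. From the lists the highest by mean level were named, and other genes were chosen after their values were seen. Marker-class limits (10% of UMIs for goblet and Paneth lists, 5% for enterocyte, 0.5% for tuft and immune, 0.2% for stem) were set after seeing the data. Scrublet (scanpy 1.11.5) scored doublets. The threshold it chose marked 0.0648%, 0.014%, 2.49% and 0.0162% of barcodes and was set aside, so doublets were kept in the values above. The likeness step was tested on simulated counts.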

Additional observations from a re-analysis of the deposited data

How the results depend on the processing

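The share of gated barcodes moved to 1.94% with a gate of 5 or more Chga and Chgb UMIs, 0.834% with 20 or more and 0.886% with up to 50% mitochondrial UMIs, and ranged from 0.796% to 1.19% with 1 library left out. The share of them holding 2 or more members moved to 45.1% and 91.2% with gates of 5 and 20, to 91.9% and 72.3% with a gene held at 1 or 20 UMIs and to 67.7% after thinning, and ranged from 74.2% to 84.7% with 1 library left out. It stayed near 80.1% with 15% mitochondrial UMIs (81.0%), with the 6% highest doublet scores left out (80.0%), and with shared barcode sequences left out (80.0%). Over 10 settings, Sct, Pyy and Tph1 kept the same highest and lowest library, Gip kept its lowest in 10 and its highest in 9, and Gcg kept its highest in 6 and its lowest in 7, so no order of libraries is drawn from Gcg. Of 9 pair shares, that of Gip holders with Cck moved to 76.4% with a gene held at 3 UMIs and 72.9% at 5, that of Tph1 holders with Sct to 96.3% at 1 and 92.9% at 3, and that of Gip holders with Tph1 to 19.2% at 1. Tac1 holders with Tph1 were 62.3% at 20 UMIs. Thinning only removes UMIs, and the limit for holding a gene stayed fixed. The number of members held by a barcode could thus only stay or fall. Thinning also left out the gated barcodes with too few UMIs. The fall to 67.7% therefore cannot show whether the number of members held depends on depth between barcodes, which was not tested. The levels by leading hormone without 1 library, and the marker list without the gate genes, were chosen after seeing the data. No paired analysis was possible because no barcode number could be tied to a labelled sample and no test was run.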
